A study of Mus musculus with 89 samples.

Results

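The genes Tph1, Tac1, Reg4, Chga, Chgb, Scg2, Scg5, Cpe and Pcsk1 were followed in 2 tables of the mouse jejunum, 1 of single cells and 1 of small epithelial clumps. They were chosen by name as genes of enterochromaffin cells and of secretory granules, and all 9 were found among the 23379 genes of the single cell table and the 27538 genes of the clump table. For each gene the level was taken across the single cell types, within the enteroendocrine cells, and in crypt and villus clumps.

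Enteroendocrine cells are rare epithelial cells that sense the gut lumen and release hormones. The enterochromaffin subset makes serotonin, for which Tph1 (tryptophan hydroxylase 1) carries out the rate-limiting step, and it can also release substance P, which is cut from the Tac1 precursor. Peptides and amines are stored in dense-core granules, whose matrix is made of granins (Chga, Chgb, Scg2) and in which the prohormone convertase PC1/3 (Pcsk1) and carboxypeptidase E (Cpe) process prohormones. Scg5 encodes 7B2, a chaperone of the related convertase PC2. Reg4 encodes a secreted C-type lectin of the Reg family.

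All mice were male C57BL/6 and the tissue was jejunum. Single cells came from 4 mice on 44 plates, labelled 3 months of age except for 3 plates of mouse 2 labelled 4 months. Plate labels name sorting gates where they give one: Epcam (an epithelial surface protein), CD24, levels of both (Epcam_Cd24low, EpcamLow_Cd24high), CD45Epcam on mouse 3 and CD54Epcam on mouse 4, and 5 plates of mouse 2 were sorted on CD24. Clumps were sorted by DNA content on 45 plates, as pairs (4n) from mice 1 to 5, as larger clumps (above 4n) from mice 1, 4 and 5, and above 2n from mouse 6, which was kept apart. All clump plates were labelled 3 months of age. The mice of the 2 tables are numbered separately. Each library was made by MARS-seq, which counts mRNA molecules as unique molecular identifiers (UMIs) near the 3′ end, and levels are given as CPM, the UMIs of a gene scaled to a fixed total of UMIs in each group of cells or clumps.

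Of 16850 single cell wells, 5199 were kept, and 232 of them formed the enteroendocrine-like cluster: 10, 210, 7 and 5 cells from mice 1 to 4. The 9 genes were left out of both the clustering and the naming. Among its leading genes were Insm1, Isl1, Fev, Scgn, Scg3 and Pcsk1n of the enteroendocrine list, and Sst, Ghrl, Cck, Gip and Sct led by fold. The CD24 plates of mouse 2 gave 180 of the 232 cells. Median depth was 1853.5 UMIs per enteroendocrine-like cell. The tables share 384 well barcodes across plates, and 0 wells held identical counts. Other clusters were enterocyte-like (2577 cells), T cell-like (1605), goblet-like (212) and tuft-like (186), and 387 cells led by hemoglobin and immunoglobulin genes were left unnamed. Summed levels of T cell markers in the enteroendocrine-like cells were 0, 843, 144 and 225 CPM in mice 1 to 4, and those of Paneth cell markers 117, 4023, 217 and 786 CPM. Goblet markers were at 3423, 2344, 1805 and 2583 CPM, enterocyte markers at 2217, 2151, 1805 and 1572 CPM, and tuft markers at 467, 1785, 866 and 561 CPM. Their part in the results was not tested.

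Sequences before the RefSeq start are given for 4 granule genes. Of these 3 hold a palindromic motif, and Chga holds its shorter form, which is not particular to these genes. Of the 9 genes, 8 had a promoter entry in RefSeq (build GRCm38.p6), and Cpe had none. The palindromic cAMP response element, spelled TGACGTCA, was searched on both strands in the 250 bases before each RefSeq start. It was found in 508 of 32851 promoters (1.55%) and in those of Scg2, Chgb and Pcsk1. Its shorter form TGACG, which the palindrome contains, was in 17.8% of all promoters and in 7 of the 8 entries, all but Reg4. In the lines that follow the palindrome is in capitals, or the shorter form in Chga, which lacks the palindrome. A further shorter form in the Pcsk1 line is left in lower case. Each sequence reads 5′ to 3′ along the strand of its gene.
Scg2, chr1:79440057-79440124, minus strand: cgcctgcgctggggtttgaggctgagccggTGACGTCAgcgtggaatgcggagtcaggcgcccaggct
Chgb, chr2:132781540-132781607, plus strand: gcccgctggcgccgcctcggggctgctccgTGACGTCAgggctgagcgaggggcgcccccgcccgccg
Pcsk1, chr13:75089749-75089816, plus strand: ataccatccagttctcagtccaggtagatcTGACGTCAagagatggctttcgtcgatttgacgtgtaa
Chga, chr12:102554867-102554934, plus strand: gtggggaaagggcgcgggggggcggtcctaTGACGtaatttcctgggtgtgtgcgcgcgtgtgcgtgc
Starts here are those of RefSeq, while the gene spans are those of GENCODE (vM21), whose gene records can begin further upstream. The Chgb window and most of the Scg2 window therefore lie inside the GENCODE span of their gene. The palindrome ends 60 bases before the RefSeq start in Scg2, 64 in Chgb and 70 in Pcsk1, and the shorter form in Chga ends 39 bases before it. A match of letters does not show that a factor binds there.

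In GENCODE's annotation of GRCm38 the 9 genes lie on 8 chromosomes, and all are protein-coding. Scg5 (chromosome 2, 113776362 to 113829121, minus strand) and Chgb (chromosome 2, 132781278 to 132795079, plus strand) share a chromosome. Tph1 is at 46644641 to 46672537 on chromosome 7, minus strand, Tac1 at 7554879 to 7565834 on chromosome 6, plus strand, and Reg4 at 98222156 to 98236748 on chromosome 3, plus strand. Chga spans 102554969 to 102565028 on chromosome 12, plus strand, Scg2 spans 79434669 to 79440120 on chromosome 1, minus strand, Cpe spans 64592542 to 64693054 on chromosome 8, minus strand, and Pcsk1 spans 75089826 to 75134861 on chromosome 13, plus strand.

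All 9 genes were higher in enteroendocrine-like cells than in the other cells of the same mice. In all 4 mice, 7 of them lay above every other cell group, whereas Tac1 and Reg4 were detected in the enteroendocrine-like cells of 2 of the 4 mice. Tph1 stood at 156, 1239, 794 and 225 CPM in mice 1 to 4, a mean of 603 ± 511 CPM (SD, n = 4), against a mean of 6.58 ± 11.4 CPM in T cell-like cells, the next group. The ranges did not overlap.

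The granins had the following levels in mice 1 to 4. Chgb was at 4668, 10784, 13935 and 2695 CPM (mean 8020.5 ± 5235), and the next group, enterocyte-like cells, had 63.2 ± 68 CPM. Chga was at 700.2, 4601, 4549 and 898 CPM (mean 2687 ± 2181), next to 27.2 ± 47.1 CPM in T cell-like cells. For both, mice 2 and 3 were the high ones and mice 1 and 4 the low ones, and no mouse came near the level of another cell group. Scg2 was at 1517, 499.7, 1227 and 674 CPM (mean 979 ± 474), here with mouse 2 lowest, and its highest mean elsewhere was 2.93 ± 5.07 CPM in tuft-like cells.

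Of the processing enzymes and the chaperone, Cpe varied least between mice relative to its mean, at 1362, 1039, 1372 and 1123 CPM (mean 1224 ± 169). Scg5 was at 117, 286, 217 and 337 CPM (mean 239 ± 95.2), and Pcsk1 at 117, 306, 649.8 and 112 CPM (mean 296 ± 252). Outside the enteroendocrine-like cells, the highest value of these 3 genes in a mouse was 24.9 CPM, for Pcsk1 in goblet-like cells of mouse 3, so the ranges did not overlap.

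Tac1 and Reg4 were uneven. Tac1 stood at 276 CPM in mouse 2 and 72.2 CPM in mouse 3, where it was 1 UMI, and was not detected in mice 1 and 4. Reg4 stood at 6554 and 4982 CPM in mice 2 and 3 and was likewise not detected in mice 1 and 4. Paneth cell markers, summed, were at 4023 and 217 CPM in those cells of mice 2 and 3. A count of 0 allows up to 117 CPM in mouse 1 and 337 CPM in mouse 4, and such limits and all intervals on counts given here cover counting error only. The ranges over mice therefore overlapped those of other groups for these 2 genes. Below the enteroendocrine-like cells, the order of the other groups was not resolved for any of the 9 genes, since neighbours overlapped in range throughout.

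**Figure D1:**
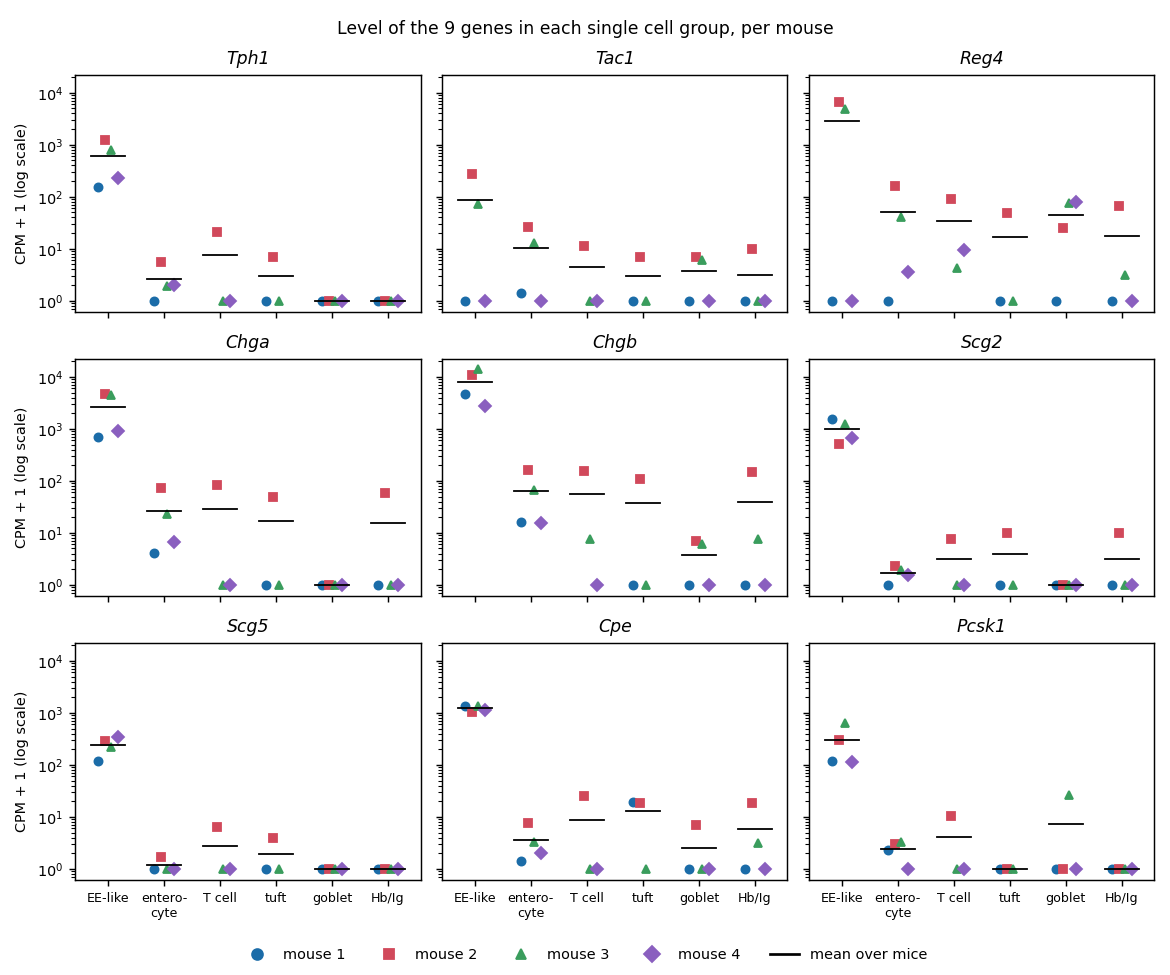
CPM + 1 on a log scale (vertical axes) in each single cell group (horizontal axis), 1 panel per gene, with 1 symbol per mouse and a bar at the mean over mice with at least 5 cells of the group; Hb/Ig marks the unnamed cells led by hemoglobin and immunoglobulin genes. The enteroendocrine-like (EE-like) symbols lie above all others in 7 panels, while Tac1 and Reg4 have 2 mice at 0 CPM.

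UMI counts summed per mouse were compared between the enteroendocrine-like and all other kept cells with edgeR's quasi-likelihood test. At an adjusted p under 0.05, 9 of 9 genes were higher, where 3.63% of the 6823 genes tested were higher and 10.4% lower. The median log2 fold change of the 9 genes was 6.37, against -0.36 over all genes tested. It ranged from 3.91 ± 0.59 (SE, edgeR adjusted p = 3.6e-09) for Tac1 to 8.45 ± 0.85 (edgeR adjusted p = 2.3e-20) for Scg2. Tph1 was higher by 7.32 ± 0.80 on the log2 scale (edgeR adjusted p = 1.1e-17). Cells were grouped by other genes of the same libraries, so these values describe size against the spread over mice and are not an independent test; 7 of the 9 genes, all but Reg4 and Scg2, are also in the study's own marker list for this cell type. With DESeq2 the calls of Tac1 (adjusted p = 0.268) and Reg4 (adjusted p = 0.116) were lost. Where cells were taken by marker sums, Tph1 (edgeR adjusted p = 0.0525) and Reg4 (edgeR adjusted p = 0.102) were not called. Fold changes were then smaller for 8 of the 9 genes, from 3.32 for Tph1 to 6.00 for Scg2 on the log2 scale, and Tac1 was at 4.38. Without mouse 2 the counts of Tac1, Reg4 and Scg5 were too low to be tested, with the other 6 genes higher. Without mouse 3, Tac1 and Reg4 were too low, with the other 7 genes higher.

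Other genes of these pathways were read from lists. Unlike the 9 genes, these were not left out of the clustering. Insm1, Isl1, Fev, Scgn and Scg3 were also among the markers that named the cluster. That they were higher there restates the grouping and is not independent evidence. Of 10 peptide hormone genes 6 could be tested and all 6 were higher, among them Ghrl (ghrelin, log2 8.79), Cck (cholecystokinin, 8.63) and Sst (somatostatin, 7.53). Of 12 transcription factors 6 were tested and 6 were higher, with Pax6 at 6.86 and Isl1 at 7.21. Of 23 further granule and exocytosis genes 9 were tested and 7 were higher, including Snap25 (a SNARE protein, 7.52), Scgn (secretagogin, 7.61) and Scg3 (a granin, 6.65). Of 14 serotonin pathway and enterochromaffin genes 4 were tested and 2 were higher, Fev (a transcription factor of serotonin-producing cells, 6.23) and Ddc (the decarboxylase after Tph1 in serotonin synthesis, 2.16). The 4 Reg family genes other than Reg4 that could be tested were all lower, from -5.74 for Reg3b to -3.14 for Reg3a, so Reg4 had the opposite sign to its paralogs. Reg3 genes are close paralogs, and how reads were split among them is uncertain.

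The share of cells with a UMI was taken over all 4 mice. A Chgb UMI was found in 91.8% of enteroendocrine-like cells (exact 95% interval 87.5 to 95%), Cpe in 68.1%, Chga in 59.5%, Reg4 in 40.5%, Tph1 and Pcsk1 in 39.2% each, Scg5 in 37.5%, Scg2 in 34.9% and Tac1 in 17.2%. With each cell thinned to 500 UMIs (226 cells deep enough), Chgb was in 81.9%, Chga in 45.6%, Reg4 in 31.0% and Tph1 in 27.9% of cells. As a background, goblet-like cells (median 2002.5 UMIs) held Chgb in 0.943% of cells and Tph1 and Chga in 0 of 212 cells, which allows a share of cells with a UMI of up to 1.42% (3 cells of the total). Tuft-like cells (median 2206.5 UMIs) held Chgb in 15.6% of cells, or 4.47% after thinning.

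The UMIs of the 9 genes outside the enteroendocrine-like cells differed between plates. On the CD24 plates of mouse 2, where 16.7% of cells were enteroendocrine-like, 36.8% of the 895 other cells with fewer than 10 UMIs of the 9 genes had at least 1, for a summed level of 383 CPM. On the other plates of mouse 2, with 4.21% enteroendocrine-like cells, the sum was 31.2 CPM, and in mice 1, 3 and 4, with 0.646%, it was 12.2 CPM. The other plates of mouse 2 are themselves mixed, with 1.57% enteroendocrine-like cells on Epcam plates and 16.3% and 14.3% on plates of either age with no gate given. The mix of genes in the other cells was compared with that in the enteroendocrine-like cells of the same plates. On the CD24 plates Chgb made up 43.9% of the UMIs of the 9 genes in the former and 41.4% in the latter, Chga 18.9% and 18.5%, and Reg4 20.8% and 27.0%, whereas Cpe (6.14% and 3.49%), Scg2 (2.33% and 1.19%) and Tac1 (2.33% and 1.14%) made up more of the former. On the other plates of mouse 2 the mixes were further apart, with Reg4 at 38.2% and 5.93% and Chgb at 20% and 52.2%. In the enterocyte-like cluster, 9 cells with at least 10 such UMIs held 86.6% of its 1051 UMIs of these genes. No doublet caller was run, and whether these wells held more than 1 cell was not tested.

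The balance of the genes differed between plates within mouse 2. Its 180 enteroendocrine-like cells from CD24 plates had Reg4 at 7439 CPM, Chga at 5082, Chgb at 11406, Tph1 at 1383, Tac1 at 313, Scg2 at 327, Cpe at 961, Scg5 at 295 and Pcsk1 at 321 CPM. The 30 cells from its other plates had Reg4 at 764, Chga at 1458, Chgb at 6716, Tph1 at 295, Tac1 at 34.7, Scg2 at 1631, Cpe at 1545, Scg5 at 226 and Pcsk1 at 208 CPM. Scg2 and Cpe had the lower and the other 7 genes the higher value on the CD24 plates. With 1 mouse, the gate and other differences between plates cannot be told apart.

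Within enteroendocrine-like cells, the presence of Tph1 separated 2 sets of granule genes. Cells with a Tph1 UMI had more Tac1, Reg4, Chga and Chgb, and less Scg2 and Cpe. Mouse 2 alone had at least 5 cells of each kind, 85 with and 125 without Tph1, so there was no test over mice and the values describe this mouse. Depth was similar, with medians of 1780 UMIs in all 91 enteroendocrine-like cells with Tph1 and 1953 UMIs in the 141 cells without. Summed T cell markers were at 932 and 661 CPM in these cells, and enterocyte markers at 2616 and 1827 CPM, and their part in the results was not tested.

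Among the genes that went with Tph1, Tac1 was found in 41.2% of cells with Tph1 (95% interval 30.6 to 52.4%) and in 3.20% of those without (0.879 to 7.99%), at 619 and 42.6 CPM. Reg4 was in 74.1% (63.5 to 83.0%) and 22.4% (15.4 to 30.7%), at 15283.5 and 604 CPM, a 25.3-fold difference. Chga was in 94.1% (86.8 to 98.1%) and 36.8% (28.4 to 45.9%), at 10437 and 623 CPM, or 16.7-fold. Among the genes higher with Tph1, these 3 had the widest gaps. Chgb was in 98.8% and 88.0% of cells and differed by level more than by detection, at 20005 and 4499 CPM (4.45-fold).

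Scg2 and Cpe ran the other way. Scg2 was found in 8.24% of cells with Tph1 (3.38 to 16.2%) and in 51.2% of those without (42.1 to 60.2%), at 51.1 and 805 CPM, 15.8-fold lower with Tph1. Cpe was in 54.1% and 76.0%, at 420.4 and 1459.8 CPM, 3.47-fold lower. For Scg5 (49.4% and 30.4%) and Pcsk1 (47.1% and 34.4%) the intervals overlapped, with CPM ratios of 1.42 and 1.68. In all, 4 of 8 genes had a higher and 2 a lower share with intervals apart, where 9.16% of the 2107 genes with a UMI in at least 20 cells had a higher and 2.09% a lower share.

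Each of the 5 CD24 plates gave the same direction for Tac1, Reg4, Chga, Chgb, Scg2 and Cpe, and 4 of the 5 for Scg5 and Pcsk1. After thinning each cell to 500 UMIs, with Tph1 itself read after thinning (60 cells with and 145 without), the shares with and without Tph1 were 23.3 and 6.21% for Tac1, 61.7 and 20.7% for Reg4, 96.7 and 27.6% for Chga, 98.3 and 75.9% for Chgb, 3.33 and 21.4% for Scg2 and 20.0 and 41.4% for Cpe, again with intervals apart. In mice 1, 3 and 4 together there were 6 cells with Tph1 and 16 without. Chga was in all 6 of the first (6319 CPM) and in 37.5% of the second (408 CPM), and Scg2 in 16.7% (256 CPM) and 56.2% (1605 CPM). These directions were those of mouse 2, on few cells and with intervals that overlapped. A fit over the 4 mice with at least 1 cell of each kind, added after the data were seen, could test 31 genes and called 0 with edgeR, with 5 genes at an unadjusted p under 0.05. Chgb had a log2 difference of 1.73 (edgeR adjusted p = 0.535) and Cpe of -2.07 (edgeR adjusted p = 0.122) there.

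**Figure D2:**
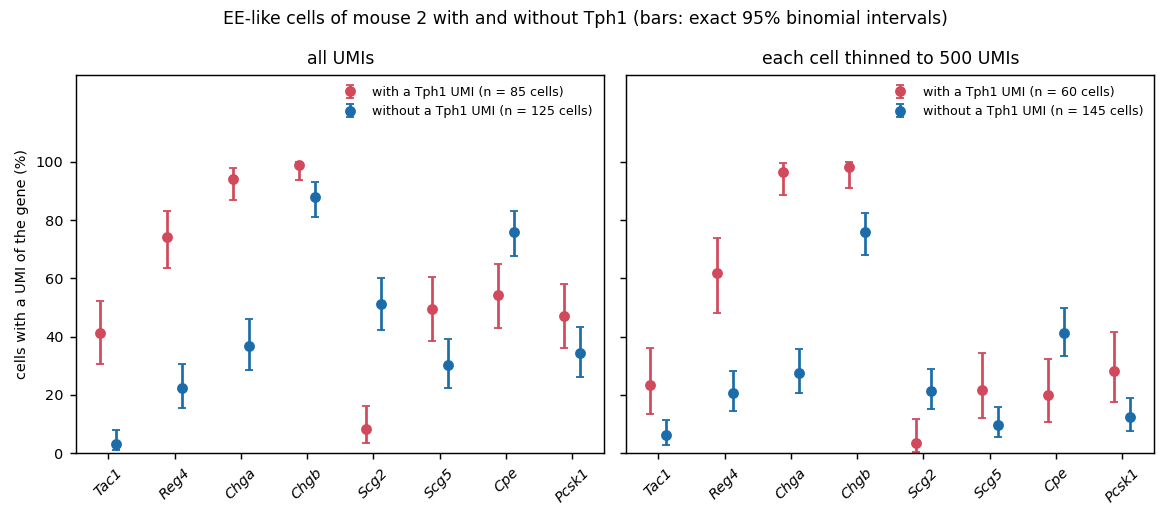
Share of enteroendocrine-like cells of mouse 2 with a UMI of each gene (vertical axis, percent) for cells with and without Tph1, with exact 95% binomial intervals, from all UMIs and after thinning to 500 UMIs. Tac1, Reg4, Chga and Chgb lie higher with Tph1 and Scg2 and Cpe lower, in both panels.

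The pathway lists also divided in mouse 2, here over every gene with a UMI. Against their counts stand the shares of 9.16% higher and 2.09% lower, which cover genes with a UMI in at least 20 cells. Of 10 serotonin and enterochromaffin genes with a UMI, 4 had a higher share with Tph1: Slc18a1 (the vesicular monoamine transporter VMAT1, 50.6 and 8.00% of cells), Lmx1a (a transcription factor, 34.1 and 0.800%), Trpa1 (an irritant-sensing channel, 16.5 and 0.800%) and Slc38a11 (11.8 and 0%). Asic5, an ion channel, was lower (1.18 and 29.6%). Of 9 hormone genes 0 were higher and 5 were lower: Cck (15.3 and 49.6%), Ghrl (10.6 and 39.2%), Iapp (2.35 and 25.6%), Pyy (4.71 and 24%) and Nts (2.35 and 15.2%). Of 22 granule genes 8 were higher, among them Snap25 (42.4 and 8.80%), Syt7 (58.8 and 25.6%), Ptprn (36.5 and 8.00%) and Vgf (22.4 and 2.40%), and 2 were lower, Scgn (5.88 and 48.0%) and Cplx2 (18.8 and 44.0%). Of 11 transcription factors 3 were lower, Isl1, Pax6 and St18, and Fev was in 21.2 and 17.6% of cells with intervals that overlapped.

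Over all 232 enteroendocrine-like cells, 36 of the 40 cells with Tac1 also had Tph1, and 30 cells had Tph1, Tac1 and Reg4 together. Tph1 and Scg2 met in 8 cells, while 83 had Tph1 without Scg2, 73 Scg2 without Tph1 and 68 neither. The correlation across cells is given as a description, since cells share plates and depth. Spearman's rho of UMIs per total was highest for Tph1 with Chga (0.75), Chga with Chgb (0.72), Tph1 with Chgb (0.66), Reg4 with Chga (0.64) and Tph1 with Reg4 (0.60). It was 0.48 for Scg2 with Cpe, and negative for Tph1 with Scg2 (-0.43) and Tph1 with Cpe (-0.36). Scg5 and Pcsk1 had values between 0.03 and 0.30 with the other genes, and 0.19 with each other. Within mouse 2 alone Tph1 with Chga had 0.75 and Tph1 with Scg2 had -0.43.

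**Figure D3:**
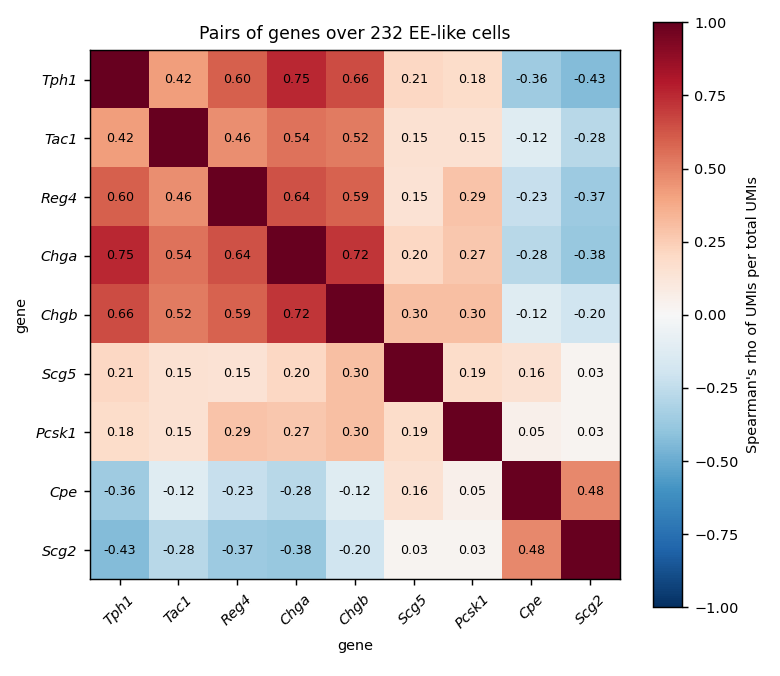
Spearman's rho for each pair of the 9 genes over 232 enteroendocrine-like cells, from UMIs of the gene per total UMIs of the cell; both axes list the genes and the color bar gives rho. Tph1, Tac1, Reg4, Chga and Chgb form a block of positive values, the highest 0.75, and Cpe and Scg2 are positive with each other and negative with that block.

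Expression was concentrated in few cells for some of the genes. The 23 cells with most Reg4 held 84.4% of its 2915 UMIs, up to 10.6% of all UMIs of a cell, and the 23 with most Tac1 held 83.5% of its 121 UMIs. The corresponding share was 58.0% for Tph1, 49.2% for Chga and 42.3% for Chgb. Among 723 genes with a UMI in at least 20% of these cells, the keratin gene Krt19 was the most like each of Tph1 (rho 0.80), Chga (0.77), Chgb (0.67), Reg4 (0.65) and Tac1 (0.45) over the 232 cells. It was followed by Krt7 and S100a6 for Tph1 (0.73 and 0.69), Chga (0.72 and 0.67) and Chgb (0.60 and 0.61). For Reg4 the next genes were Ccnd2 (0.61) and Slc18a1 (0.54), and for Tac1 Slc18a1 (0.44) and Ccnd2 (0.43).

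Clumps carry the position of a cell on the crypt-villus axis, and the question was whether the genes differ between crypt and villus. Of 17162 wells, 5883 clumps of mice 1 to 5 were placed by landmark genes: 3251 in the crypt and 2632 in the villus (1821 mid-villus, 811 tip). The median was 4878 UMIs in crypt and 1593 UMIs in villus clumps. Larger clumps made up 2152 of the crypt clumps and 493 of the villus clumps, so zone and clump size are mixed in these comparisons. A clump is a small group of cells of several types, so a lower level can come from fewer enteroendocrine cells or from less RNA in each, and these cannot be told apart here. Chgb was lower in villus clumps, while the difference of Chga did not pass the test, and Tac1 and Reg4, too scarce for that test, had the higher level in the crypt in 5 of 5 mice.

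Chgb was at 15.9, 44.1, 18.4, 36.9 and 0 CPM in crypt clumps of mice 1 to 5 and at 10.8, 0.772, 2.84, 6.08 and 14.6 CPM in villus clumps. The means were 23.1 ± 17.6 and 7.02 ± 5.68 CPM (SD, n = 5), and 4 of 5 mice had the higher value in the crypt. Mouse 5, with 137 crypt clumps, ran the other way, and in mouse 2 a single crypt clump held 29 of the 35 Chgb UMIs. In crypt pairs of mice 1 and 4 Chgb was at 3.30 and 2.61 CPM, against 19.9 and 37.7 CPM in their larger crypt clumps. Mice 2 and 3 gave pairs only, and the part of clump size was not tested. Chga was at 21.9, 8.82, 21.8, 9.27 and 28.9 CPM in the crypt and 33.2, 12.3, 32.4, 4.56 and 10.9 CPM in the villus, with 3 of 5 mice higher in the villus (means 18.1 ± 8.77 and 18.7 ± 13.2 CPM).

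Tac1 was at 1.99, 6.30, 5.54, 4.98 and 5.77 CPM in crypt clumps and at 0, 0, 1.70, 1.52 and 0 CPM in villus clumps. The measured values of the zones did not overlap. A villus count of 0 allows up to 2.32, 2.31 and 10.9 CPM in mice 1, 2 and 5. The crypt values of mice 1 and 5 lie under these limits, so the order is not resolved there. Reg4 was at 11.5, 2.52, 4.85, 23.6 and 2.89 CPM in the crypt and at 1.54, 0, 0.284, 3.04 and 0 CPM in the villus. Its measured level was higher in the crypt in 5 of 5 mice, on 2 crypt UMIs in 1 clump of mouse 2 and 1 crypt UMI in mouse 5. The same limits hold for its villus counts of 0, and the crypt value of mouse 5 lies under them. Tac1 and Reg4 are rare, with 122 and 491 UMIs in all crypt clumps and 7 and 5 UMIs in all villus clumps. Both are also crypt landmarks that the study chose on these clumps, so their direction is not independent evidence. In crypt pairs of mice 1 and 4 both were at 0 CPM. Larger crypt clumps of these mice had 2.62 and 5.09 CPM of Tac1 and 15.2 and 24.1 CPM of Reg4. Mouse 5 had 27.2 CPM of Tac1 and 0 of Reg4 in 15 crypt pairs, and 3.23 CPM of each in larger ones. Mice 2 and 3 gave pairs only. The part of clump size was not tested.

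The other 5 genes were scarce in clumps. Tph1 had 31 UMIs in crypt and 7 in villus clumps, at 1.99, 1.26, 1.39, 1.06 and 2.89 CPM in the crypt and 4.63, 0, 0.284, 0 and 0 CPM in the villus, so 4 of 5 mice were higher in the crypt. Cpe had 65 and 17 UMIs (means 2.86 ± 2.91 and 2.03 ± 1.61 CPM), Pcsk1 28 and 5 (0.679 ± 0.623 and 0.629 ± 0.643 CPM) and Scg2 24 and 6 (0.565 ± 0.615 and 2.65 ± 4.74 CPM). Scg5 had 5 UMIs in the crypt and 0 in the villus, where 0 counts allow up to 0.426 CPM. Differences between zones for these genes were not detectable at these counts.

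**Figure D4:**
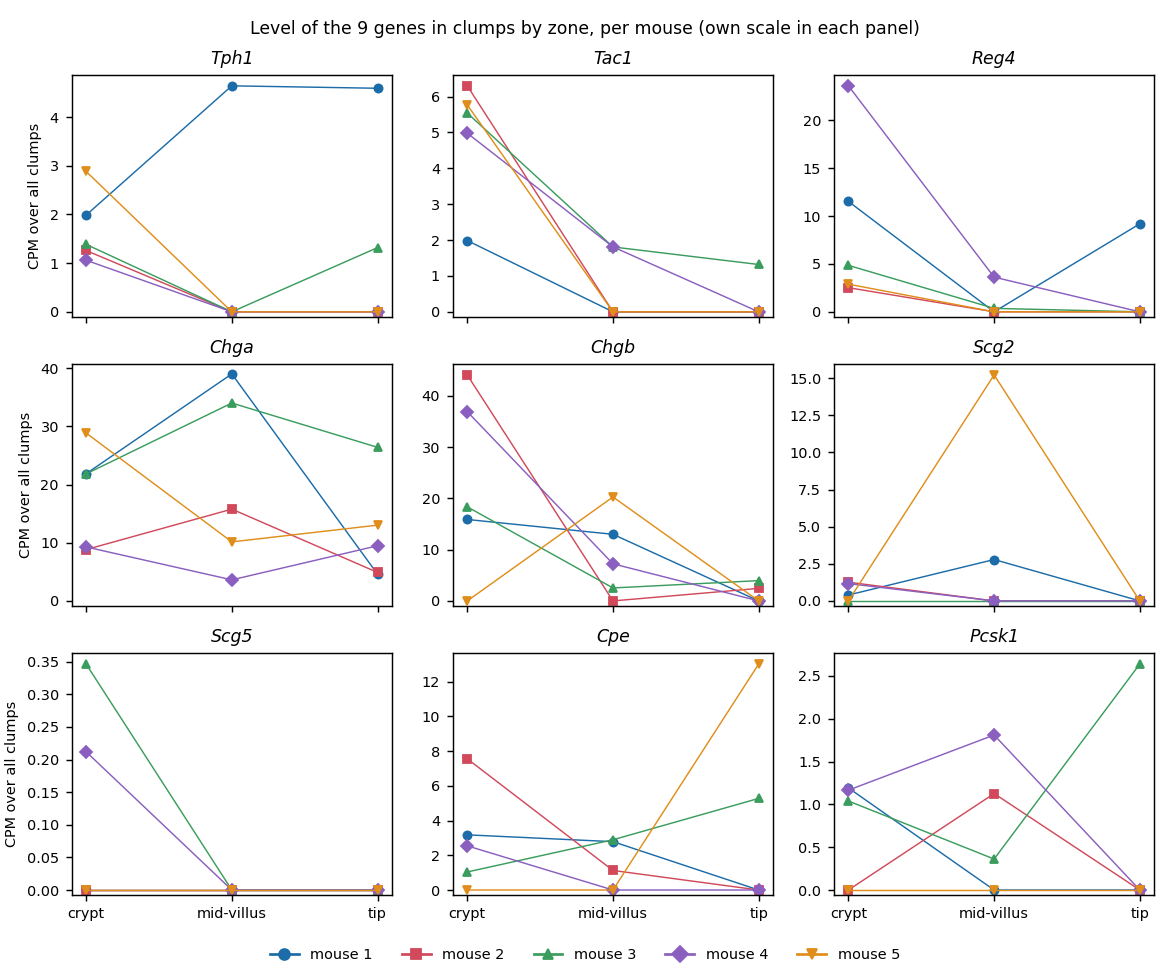
CPM over all clumps of a mouse (vertical axes, own scale in each panel) in crypt, mid-villus and tip clumps, with 1 line per mouse. The measured level of Tac1 falls from crypt to mid-villus in 5 of 5 mice and that of Chgb in 4 of 5, and Chga has no common direction. Mid-villus counts of 0 for Tac1 allow up to 2.79, 3.38 and 15.2 CPM in mice 1, 2 and 5, so its fall is not resolved in mice 1 and 5.

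In edgeR's quasi-likelihood test of villus against crypt sums over 5 mice, only Chga and Chgb had enough counts. Chgb was lower in the villus, with a log2 fold change of -1.88 ± 0.66 (SE, edgeR adjusted p = 0.0294), and Chga was not called at 0.56 ± 0.48 (edgeR adjusted p = 0.359). Of the 7966 genes tested 23.3% were higher and 24.5% lower, so 1 call among 2 genes is no result about the set, whose median was -0.66 against 0.07 over all genes. With no filter on low counts Reg4 was also lower (-3.58, edgeR adjusted p = 0.00341) and Tac1 was at -2.22 (edgeR adjusted p = 0.0579). The Chgb call was lost without mouse 2 (log2 -1.26, edgeR adjusted p = 0.154), without mouse 3 (-1.62, 0.119), without mouse 4 (-1.82, 0.0574) and with mid-villus clumps alone against the crypt (-1.77, 0.0582). Its direction held, and without mouse 1 it was at -2.51 (edgeR adjusted p = 0.0293).

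Of the lists, 3 of 14 serotonin genes could be tested and all 3 were higher in villus clumps, namely Gch1 (which supplies the cofactor of Tph1, log2 1.62), Ddc (0.97) and Maob (monoamine oxidase B, 1.29). In enteroendocrine-like cells Gch1 (1.33, edgeR adjusted p = 0.130) and Maob (-1.28, edgeR adjusted p = 0.307) did not pass the test against other cells. Among hormones 3 were tested and Sct (secretin) was higher (2.76), and among granule genes 2 were tested, with Vamp2 higher (0.79) and Pam, an enzyme that amidates peptides, lower (-0.75). Paneth cell markers were lower in villus clumps for 13 of 13 genes, and of 8 goblet markers 5 were higher and 1 lower.

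Clumps with an enteroendocrine cell were called from other genes, as those with at least 3 UMIs from at least 2 of 38 enteroendocrine markers. There were 61 of them, 58 in the crypt and 3 in the mid-villus, and mouse 4 gave 43. Their share of crypt clumps was 1.64, 0.917, 1.20, 2.09 and 0.730% in mice 1 to 5 (mean 1.32 ± 0.55%), and their share of villus clumps 0.372, 0, 0.0995, 0 and 0% (mean 0.0942 ± 0.161%). In 5 of 5 mice the crypt had the larger share, in mouse 5 by 1 clump. Larger clumps made up 2152 of 3251 crypt clumps and 493 of 2632 villus clumps. The zones differed in a two-sided exact permutation test that took the zones as separate samples (p = 0.00794, the smallest it can give). The same 5 mice gave both zones, and with the mouse as a block the exact sign-flip p was 0.0625, the smallest that 5 pairs allow, so the call was lost. With each clump thinned to 500 UMIs and the rule also changed to at least 1 marker UMI, the shares were 2.38 and 1.85% and the difference did not pass (exact permutation p = 0.222). The parts of depth and of the rule in this were not tested. For pairs alone the difference did not pass either (exact permutation p = 0.167), with 3 of 5 mice higher in the crypt. With at least 5 UMIs of 3 markers, 4 of 5 mice were higher in the crypt (exact permutation p = 0.0476).

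In these clumps, pooled over 5 mice with 43 from mouse 4, Tac1 and Chga were found more often with Tph1. Clumps are not replicates and the share over all genes was not taken, so these values are a description. Of the 61, 11 had a Tph1 UMI, and Tac1 was found in 90.9% of those (58.7 to 99.8%) and in 16% of the 50 others (7.17 to 29.1%). Chga was in 90.9% and 40% (26.4 to 54.8%), again with intervals apart. Scg2 was in 0 of 11, which allows a share of up to 27.3% (3 of the total), and in 14.0% of the others. For Scg2, Reg4 (27.3 and 10%), Chgb (90.9 and 62%) and Cpe (18.2 and 40%), which were apart in single cells, the intervals overlapped here, as they did for Scg5 (9.09 and 8.00%) and Pcsk1 (9.09 and 14.0%). Clumps with Tph1 were the shallower ones, with a median of 7712 against 11502.5 UMIs. The 3 villus clumps had 13 Chgb, 5 Chga, 5 Cpe and 3 Scg2 UMIs and 0 of Tph1, Tac1 and Reg4. No test of levels within enteroendocrine clumps between zones was made with them.

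Reg4 in crypt clumps went with Paneth cell markers, a comparison chosen after the values were seen. The 151 crypt clumps with a Reg4 UMI had 66469 CPM of 13 Paneth markers, against 3444 CPM in the 3100 others (19.3-fold), and 32.4 and 38.9 CPM of enteroendocrine markers. At least 1 enteroendocrine marker UMI was in 19.2% of the clumps with Reg4 and in 11.1% of those without. Part of the Reg4 was in enteroendocrine clumps: the 58 crypt ones held 92 of its 491 crypt UMIs, in 8 clumps, at 111 CPM against 19.3 CPM over all crypt clumps. Crypt clumps with Chgb had 312 CPM of enteroendocrine markers against 19.9 CPM in those without (15.7-fold), and 8535 and 9727 CPM of Paneth markers. That second comparison differed between mice, since the 11 clumps with Chgb in mouse 1 had 107342 CPM of Paneth markers against 16394 CPM in the others, and the 98 in mouse 4 had 1154 against 9142 CPM. Clumps with Reg4 were also deeper, with a median of 12450 against 4622 UMIs.

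In the 199 crypt clumps with at least 1% of UMIs from Paneth markers, 291 of the 491 crypt UMIs of Reg4 were found. Reg4 stood at 94.8, 76.4 and 323 CPM in such clumps of mice 1, 3 and 4, and at 2.21, 0 and 10.7 CPM in the other crypt clumps of the same mice. It was higher in the Paneth-rich clumps of all 3 mice, with median depths of 4911 against 3539 UMIs in mouse 1, 3611 against 4448 in mouse 3 and 1424 against 6970 in mouse 4. Chga had 1, 0 and 0 UMIs in the Paneth-rich clumps of these mice, against 23.9, 23.3 and 9.67 CPM in the others, and the counting intervals overlapped in mice 1 and 3. Chgb had no common direction, at 19.7, 0 and 1.28 CPM against 15.5, 19.6 and 38.5 CPM.

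**Figure D5:**
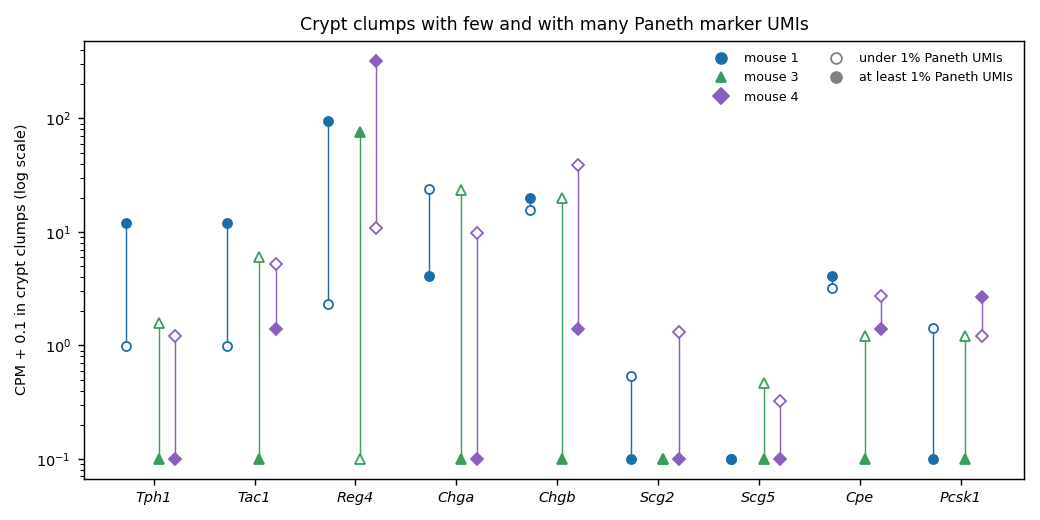
CPM + 0.1 on a log scale (vertical axis) of each gene (horizontal axis) in crypt clumps with under 1% (open symbols) and at least 1% (filled symbols) of UMIs from Paneth markers, with 1 pair of symbols joined by a line for each of mice 1, 3 and 4, which had at least 5 clumps of each kind. Reg4 has its filled symbols at 76.4 to 323 CPM, above the open ones in all 3 mice.

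In single cells Reg4 was also found with Paneth markers. Those cells exceeded the upper limits on UMIs and genes, and without these limits a cluster led by Paneth markers held 25 cells, 19 of mouse 2 and 6 of mouse 3. Reg4 was in 24 of the 25, at 863 CPM (95% interval 797 to 932) in mouse 2 and 490.0 CPM (364 to 646) in mouse 3. In the 6 cells of mouse 3, Reg4 had 50 UMIs, Chgb 1 UMI and the other 7 genes 0. In mouse 2, Chgb was at 72.3 and Chga at 53.6 CPM.

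In the villus, Chga was thinly spread. It was found in 141 of 2632 villus clumps, with a total of 179 UMIs and at most 4 in a clump. Villus clumps with Chga had 20.1 CPM of enteroendocrine markers and those without 20.0 CPM, with a marker UMI in 8.51% and 4.38% of clumps. In the crypt the marker levels were 151 and 26.3 CPM, with 220 against 24.2 CPM in mouse 4, 57.3 against 33.4 CPM in mouse 3 and the reverse order in mouse 2 (29.1 against 53.8 CPM). Mice differed in the villus, with 72.1 against 23.9 CPM in mouse 1 and 8.68 against 16.6 CPM in mouse 3, which gave 90 of the 141 clumps. Tuft markers were at 211 CPM in villus clumps with Chga and 88.2 CPM in those without, with 285 against 79.8 CPM in mouse 3 and the reverse in mouse 1 (12.0 against 238 CPM), and their part in the result was not tested. For Chgb the values were apart in the villus too, at 185 CPM in the 18 clumps with it and 17.7 CPM in the others. The balance of Chgb and Chga UMIs differed between mice. Mouse 4 had 697 Chgb for 175 Chga UMIs in the crypt, whereas mice 1, 3 and 5 had fewer Chgb than Chga UMIs there (40 for 55, 53 for 63 and 0 for 10). In the villus mouse 3 had 10 for 114 and mouse 4 had 4 for 3. Clumps with Chga were deeper in both zones, at 4885 against 1538 UMIs in the villus, and the part of depth in the spread of Chga was not tested.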

How the data were processed

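The authors deposited whole-number UMI counts per gene and well, 1 table of cells and 1 of clumps, made with bcl2fastq 2.15.0.4 and GRCm38 per the submitters' processing notes, and aligned with STAR through zUMIs. They also subtracted the background of 4 empty wells per plate, which was not done here. The 9 genes and all lists were chosen with earlier results of these data known. All 9 genes were named for cell types, the Tph1 comparison and clump zones, with at most 5 genes per list by smallest adjusted p. The Paneth comparison names 3 of them, chosen after their values were seen. In the Tph1 comparison, which had no p, examples were chosen after their values were seen.

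Wells were taken as cells if they held between 200 and 7000 UMIs from between 150 and 1500 genes, no more than 40% of them mitochondrial, and were clustered with scanpy 1.11.5 (2000 genes, 25 components, 20 neighbors, resolution 0.1). No doublet caller was run, beyond the upper limits. Clumps needed over 500 UMIs, 200 genes and at most 30% mitochondrial UMIs, and the 2% lowest in landmark UMIs were left out. The best correlated landmark list gave the zone.

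The mouse was the replicate, with at least 5 cells or clumps per sum. Sums were tested with edgeR 4.0.16 (TMM, filterByExpr, Benjamini-Hochberg at 0.05). Alternatives used DESeq2 1.42.0, other filters, cell rules and zones, and a block for the mouse. On simulated data, 98 and 94% of genes changed by log2 -2 and 2 were recovered between zones (8157 genes), but 26 and 24% between cell classes (7186 genes), where 9.68% of calls were false. Plates of a mouse were summed. The planned edgeR tests of Tph1-positive cells and of enteroendocrine clumps between zones could not be fitted with that minimum. Cells and clumps of a mouse share an animal: after removing group means, correlations of paired sums were 0.257 to 0.545 between zones and 0.0434 to 0.105 between cell classes.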

Additional observations from a re-analysis of the deposited data

Results flagged for a closer look

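In the villus, 3 values lay apart from those of the other mice among 28 groups of 4 or 5 mice examined, where chance gives about 1 in 20: Tph1 at 4.63 CPM in mouse 1, Scg2 at 10.9 CPM in mouse 5, and the share of enteroendocrine clumps at 0.372% in mouse 1. Of the 6 Tph1 UMIs in mouse 1, 5 were in 1 clump, and the 3 Scg2 UMIs of mouse 5 were in 1 clump.

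Mouse 6, whose 248 clumps above 2n were kept out of the comparisons and entered 1 alternative alone, held 5 of the 9 genes above the level that a count of 0 allows (2.52 CPM): Reg4 at 40.4 CPM, Chgb at 32.8, Cpe at 11.8, Chga at 10.1 and Scg2 at 7.57 CPM. The 48 Reg4 UMIs were in 2 clumps and the 39 Chgb UMIs in 1 clump, while the 12 Chga UMIs were spread over 10 clumps.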

How the results depend on the processing

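The count of 9 genes higher in enteroendocrine-like cells was 6 to 9 when 1 mouse was left out and 7 to 9 under the other alternatives, and the direction held for all genes tested. Over all genes the calls were less steady: 248 higher and 711 lower became 833 and 1448 with no filter, 164 and 413 with DESeq2, 62 and 408 without mouse 2, 397 higher without mouse 1, 378 higher with no upper limit, 101 higher without the CD24 plates and 454 lower without mouse 4. The cause was not tested.

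Between zones the count of 1 gene lower (Chgb) became 2 with no filter, 0 to 1 when 1 mouse was left out, and 0 with villus tip only, mid-villus only and pairs only. With tip clumps none of the 9 genes had enough counts, and with pairs only Chga had. With mouse 6 included Chgb was at -2.44 on the log2 scale (edgeR adjusted p = 0.00740). Over all genes, calls fell from 1859 higher and 1954 lower to 772 and 1165 with pairs only.

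With the mouse as a replicate block Chgb fell by 1.84 on the log2 scale (edgeR adjusted p = 0.00352), all 9 genes stayed higher in enteroendocrine-like cells, and the difference in the share of enteroendocrine clumps (-1.22 percentage points) had an exact sign-flip p of 0.0625, the smallest that 5 pairs allow. The block changed no other call of these genes. That difference was -0.53 points with thinning and at least 1 marker UMI together, -0.48 points in pairs only, and -1.35 to -1.004 when 1 mouse was left out (exact permutation p = 0.0286 throughout, the smallest possible). Zones from landmarks per total UMIs, an alternative chosen after seeing the data, gave -1.06 points and kept Chgb lower.

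In the Tph1 comparison the count of 6 of 8 genes held under all 6 alternatives run. Sizes were less steady. With cells thinned to 500 UMIs the log2 differences of those 6 genes were smaller. Reg4 was at 2.95 against 4.66, Chga at 2.33 against 4.07 and Scg2 at -2.57 against -3.98. Those of Scg5 and Pcsk1 were larger, and Reg4 was at 5.26 with no upper limit. The planned DESeq2, size factor, filter, block and single-mouse alternatives of the Tph1 comparison, and all those of enteroendocrine clumps between zones, were not run because the planned minimum of 5 cells or clumps per sum left too few sums, and leaving out the CD24 plates left too few cells with Tph1. Mouse 2 and its CD24 plates carry the enteroendocrine cells, mouse 4 most of the enteroendocrine clumps, and low counts kept 7 of the 9 genes out of the test between zones.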
